A study of Homo sapiens with 72 samples.

Results

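The 7 genes described here, SAT1, ODC1, AMD1, SRM, SMS, SMOX and OAZ1, encode the core enzymes of polyamine metabolism and an inhibitor of polyamine synthesis. The genes were chosen with earlier results of these data known. Their probes were taken by gene name: every probe other than a control that the scanner files assign to 1 of these genes, whatever its values. This gave 12 of the 41000 probes on the array, and all 12 were among the 25246 probes kept after dim and uneven probes had been left out.

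Polyamines are small, positively charged molecules that bind nucleic acids and are needed for cell growth. Ornithine decarboxylase, the product of ODC1, makes putrescine from ornithine, and S-adenosylmethionine decarboxylase, the product of AMD1, provides the groups with which spermidine synthase (SRM) and spermine synthase (SMS) extend putrescine to spermidine and then spermine. In the opposite direction, SAT1 is the acetyltransferase that marks spermidine and spermine for export or oxidation, and SMOX is the oxidase that turns spermine back into spermidine and releases hydrogen peroxide. OAZ1, the first antizyme, binds ornithine decarboxylase and sends it for degradation.

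RNA was taken from early-passage IMR-90 cells, a single strain of normal human lung fibroblasts. The dishes held cells on thin Mylar, which α-particles cross, beside cells on thick Mylar, which stops them. Irradiated cells lay on the thin film and received 0.5 Gy of α-particles, bystander cells were the shielded cells of the same dish, and control cells were sham-irradiated and collected at the same times. Samples were taken at 6 times after exposure (0.5 h, 1 h, 2 h, 4 h, 6 h and 24 h) in 4 independent experiments, each of which drew its control, irradiated and bystander cells from 1 pool, so that each of the 18 groups had 4 arrays and the 72 arrays filled 18 slides.

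A level below is the log2 of a probe's background-corrected intensity minus the log2 of the 75th percentile of its array, and a ratio is the difference of 2 levels of the same experiment and time on this log2 scale. A difference was called when the adjusted p of the moderated limma test, blocked by experiment and adjusted by Benjamini-Hochberg over all 25246 probes, was below 0.10, the limit of the earlier 4 h analysis from which the study took its genes for clustering. Between 65.7% and 76.9% of the spots of an array were well above background, and the 9 probes of the 6 genes other than OAZ1 were so on all 72 arrays, with no saturated spot. These are bulk samples, so fewer cells that express a gene and less RNA per cell cannot be told apart.

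The cells had the markers of fibroblasts: all 10 fibroblast genes examined, COL1A1, COL1A2, COL3A1, VIM, THY1, PDGFRB, FAP, LUM, DCN and S100A4, were well above background on 72 of 72 arrays. Among defining genes of other cell types, KRT5 was detected on 1 array, PECAM1 on 2, PTPRC on at most 4, CDH1 on 9, CDH5 on 12 and EPCAM on 44. KRT14, VWF, CD14 and CD3E each had a probe that was detected on all 72 arrays, and none of these probes was called in any comparison. The median log2 ratio to control of the 14 probes of the fibroblast genes was -0.41, -0.39, -0.24, -0.41, -0.42 and -0.57 in irradiated cells from 0.5 to 24 h, and -0.40, -0.39, -0.24, -0.38, -0.43 and -0.55 in bystander cells. Of these probes, THY1 was called lower at 0.5 h in both groups and PDGFRB in bystander cells, and in irradiated cells at 2 and 6 h PDGFRB was called lower and FAP higher. No comparison with control called more than 2 of the 14. Over all probes, 4.11% were called lower in irradiated and 2.77% in bystander cells at 0.5 h, and in irradiated cells 5.78% were called in either direction at 2 h, and 5.64% lower and 4.88% higher at 6 h. The part of these lower medians in the results below was not tested.

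Experiment 4 stood apart from the others. Over all probes, it was the array least like the rest of its group in 12 of 18 groups. Its control level of SAT1 was the highest of the 4 experiments at 0.5 h and the lowest from 1 to 24 h, and its ODC1 ratio was the highest at 5 of the 6 times in irradiated and in bystander cells alike. Several values below are given with and without experiment 4. Experiments are numbered by the replicate number of the labels, taken here as the same experiment at all times.

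The catabolic gene SAT1 had the largest ratios of the 7 genes at 0.5 h, and its measurements come from a pair of 60-base probes, A_23_P137016 and A_23_P378722, that share no run of bases longer than 6. The sequence of the second is shown as an example of what the SAT1 values rest on. It is followed by the 250 bases before the start of the gene, as SAT1, ODC1 and SRM are members with a call at 0.5 h whose promoters can be set side by side. The promoter bases are from RefSeq on GRCh38.p14 and lie at chrX:23782923-23783172 on the + strand, and capitals mark copies of CCAAT on either strand.
SAT1 probe A_23_P378722: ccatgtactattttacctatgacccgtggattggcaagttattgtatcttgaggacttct
SAT1 promoter: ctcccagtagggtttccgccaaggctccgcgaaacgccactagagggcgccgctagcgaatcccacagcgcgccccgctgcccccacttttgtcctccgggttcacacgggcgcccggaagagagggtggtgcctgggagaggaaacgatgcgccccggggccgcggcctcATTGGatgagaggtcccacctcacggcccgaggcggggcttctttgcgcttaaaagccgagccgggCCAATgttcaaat
CCAAT was the only one of 7 motifs searched that this window held, on both strands, and 32% of all 35116 promoter windows of the same length held it too. Among the members, windows of SRM, AMD1, OAZ1 and SMS also held CCAAT, and AMD1, OAZ1 and SMS had no call. The other motifs were the E-box CACGTG, the cyclic AMP response elements TGACGTCA and TGACGTC (the first contains the second), the AP-1 site TGACTCA, the TATA box TATAAA and TATGACTAA, the polyamine-responsive element described for SAT1. No member's window held TATGACTAA, which 0.0826% of all windows held.

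At 0.5 h SAT1 was about 2-fold higher in irradiated and in bystander cells than in controls. With probe A_23_P137016 the control levels in experiments 1 to 4 were 2.96, 3.14, 3.03 and 4.23. The irradiated levels were 4.38, 4.82, 3.48 and 4.97, and the bystander levels were 4.41, 4.86, 3.87 and 4.59. Each exposed array lay above the control of its own experiment, while the groups overlapped, since the control of experiment 4 was higher than the exposed arrays of experiment 3. The mean log2 ratio was 1.08 ± 0.57 (SD, n = 4; limma adjusted p = 0.0399, 2.11-fold) in irradiated cells and 1.10 ± 0.61 (adjusted p = 0.0369, 2.14-fold) in bystander cells. Probe A_23_P378722 gave 0.99 ± 0.55 (adjusted p = 0.0403) and 1.08 ± 0.59 (adjusted p = 0.0320), again with 4 of 4 experiments higher.

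The SAT1 calls at 0.5 h were lost without experiment 1 or experiment 2. Without experiment 1 the irradiated ratio of A_23_P137016 was 0.96 (limma adjusted p = 0.12) and without experiment 2 it was 0.88 (adjusted p = 0.186), and the bystander ratios were 0.98 (adjusted p = 0.156) and 0.89 (adjusted p = 0.187). No probe of the whole array was called at 0.5 h without experiment 2. Within each of the 3 slides of this time, which hold partly the same and partly different experiments in the groups compared, the irradiated minus control difference was 0.46, 1.33 and 0.67, and the bystander minus control difference was 1.20, 1.37 and 0.63. With the slide as a further fixed block, the ratio of A_23_P137016 was 0.90 (adjusted p = 0.0994) in irradiated cells and 1.08 (adjusted p = 0.105) in bystander cells. That of A_23_P378722 was 0.83 (adjusted p = 0.123) and 1.00 (adjusted p = 0.141), so that 3 of the 4 calls were lost.

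No SAT1 difference was called at 1 or 2 h, and at 4 h the bystander difference was called. At 4 h the control levels of A_23_P137016 were 3.84, 3.67, 3.83 and 2.54. The bystander levels were 4.49, 4.73, 4.72 and 3.61, and the irradiated levels were 3.88, 4.40, 4.72 and 3.77. In bystander cells each experiment rose by a similar amount, from 0.65 to 1.08, whereas the irradiated array of experiment 1 hardly differed from its control. The mean log2 ratio was 0.92 ± 0.20 (limma adjusted p = 0.0691, 1.90-fold) in bystander cells, and 0.89 ± 0.17 (adjusted p = 0.0567) with A_23_P378722. In irradiated cells the ratios were 0.72 ± 0.50 (adjusted p = 0.122) and 0.64 ± 0.40 (adjusted p = 0.13), higher in 4 of 4 experiments and not called. Both SAT1 probes are on the list of genes that the study took from an earlier analysis of the 4 h samples, so the difference at 4 h is not independent evidence. Each bystander call at 4 h was lost when any 1 experiment was left out, with ratios of 0.87 to 1.01 for A_23_P137016 (adjusted p = 0.128 to 0.269), and the same-slide bystander differences were 0.74, 0.91 and 1.63.

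At the other times no SAT1 ratio passed the test. The ratios of A_23_P137016 were 0.18, 0.12, 0.42 and 0.31 in irradiated cells and 0.33, 0.16, 0.35 and 0.33 in bystander cells at 1, 2, 6 and 24 h. At 24 h the levels ranged far more between experiments than between treatments: the controls were 4.25, 4.45, 5.05 and 1.85 and the irradiated arrays were 4.15, 4.31, 6.01 and 2.38. Without experiment 3, the irradiated ratios of A_23_P137016 at 6 and 24 h were 0.20 and 0.09 and the bystander ratios 0.19 and 0.17. Without experiment 4, the ratios of this probe at 1 and 2 h were -0.01 and -0.06 in irradiated cells and 0.16 and 0.08 in bystander cells. Also without it, the irradiated ratio of A_23_P378722 at 2 h moved from -0.02 to -0.23 and was called lower (limma adjusted p = 0.0644), in a fit that called 4915 of 25246 probes. With scaling to the spike-in spots, where 8360 probes were called in bystander cells at 1 h, the ratios there were 0.78 and 0.72 and were called higher (adjusted p = 0.0821 and 0.0851). The pair of probes agreed closely, and their mean ratios in a comparison were never more than 0.15 apart.

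**Figure D1:**
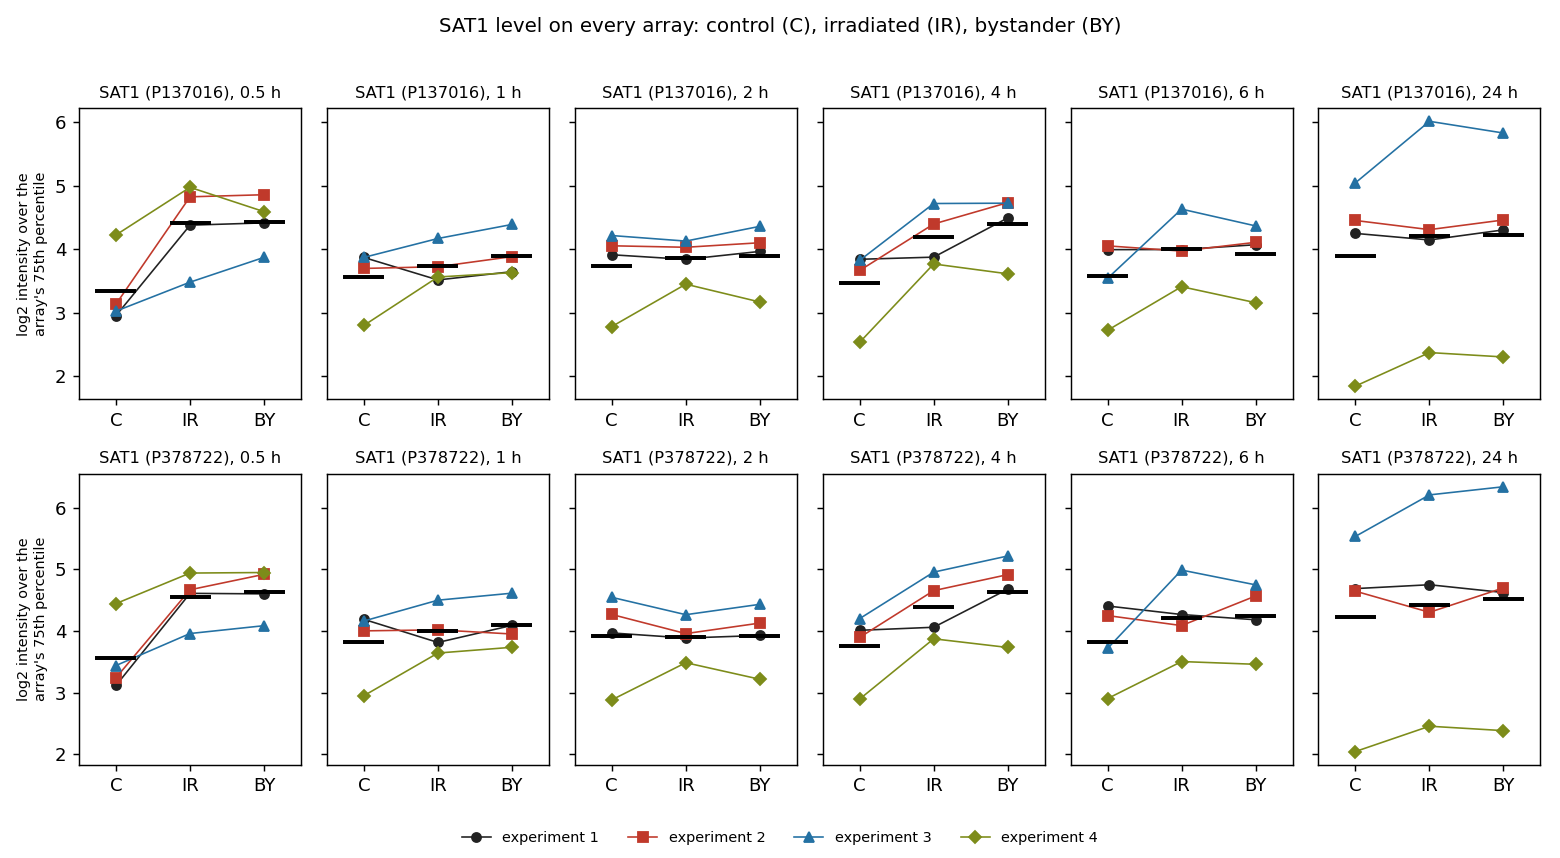
SAT1 levels at each time for both probes, in log2 units over the 75th percentile of the array, with 1 point for each of the 4 experiments in control (C), irradiated (IR) and bystander (BY) cells, lines joining arrays of the same experiment and black bars for group means. At 0.5 h every exposed array lies above the control of its own experiment, with controls of A_23_P137016 between 2.96 and 4.23.

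SMOX, the spermine oxidase, is measured by 1 probe, A_23_P102731, and had differences that were called at 0.5 and 4 h, and none at the other times. At 0.5 h its control levels were 2.63, 2.55, 2.35 and 2.89, its irradiated levels 3.18, 2.92, 2.86 and 3.48, and its bystander levels 3.30, 3.12, 2.88 and 3.48. The rise was narrow in its spread: the mean log2 ratio was 0.50 ± 0.10 (limma adjusted p = 0.0396, 1.42-fold) in irradiated cells and 0.59 ± 0.06 (adjusted p = 0.0266) in bystander cells. At 4 h the controls were 2.54, 2.45, 2.26 and 2.17, the irradiated arrays 2.83, 3.21, 3.13 and 2.94, and the bystander arrays 3.32, 3.29, 3.15 and 2.89. Neither exposed group overlapped the controls at this time. The ratio was 0.67 ± 0.26 (adjusted p = 0.0638, 1.59-fold) in irradiated cells and 0.81 ± 0.07 (adjusted p = 0.0430, 1.75-fold) in bystander cells.

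The SMOX ratios at 1, 2, 6 and 24 h were 0.07, 0.02, -0.18 and -0.12 in irradiated cells and -0.01, 0.11, -0.17 and -0.19 in bystander cells, none of them called and without a steady sign. These changed with single experiments. Without experiment 4 the ratios at 1, 2 and 24 h were -0.06, -0.14 and 0.09 in irradiated and -0.17, -0.0020 and 0.09 in bystander cells, and without experiment 1 the ratios at 1 and 6 h were 0.23 and 0.09 in irradiated and 0.11 and 0.10 in bystander cells. Without experiment 3 the ratios at 6 and 24 h were -0.48 and -0.47 in irradiated and -0.37 and -0.49 in bystander cells. The calls at 4 h were lost when any 1 experiment was left out, with bystander ratios of 0.78 to 0.84 (limma adjusted p = 0.117 to 0.218) and irradiated ratios of 0.61 to 0.80 (adjusted p = 0.125 to 0.331). At 0.5 h they were lost without experiment 1 (0.49 irradiated, 0.56 bystander) or 2 (0.55 and 0.60), and the irradiated call also without experiment 4 (0.47). The same-slide differences at 4 h were all above 0, at 0.33, 0.91 and 0.77 in irradiated and 0.82, 1.03 and 0.85 in bystander cells. With the slide as a fixed block the 4 h ratios were 0.65 (adjusted p = 0.107) and 0.79 (adjusted p = 0.194).

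The biosynthetic gene ODC1 was higher at 0.5 h in both exposed groups and had its largest ratio at 6 h in irradiated cells. Its single probe is A_23_P165840. The 250 bases before the first of 2 RefSeq starts of ODC1 lie at chr2:10448328-10448577 on GRCh38.p14, on the - strand, and the capitals mark the short cyclic AMP response element TGACGTC, which 3.12% of promoter windows held.
ODC1 promoter: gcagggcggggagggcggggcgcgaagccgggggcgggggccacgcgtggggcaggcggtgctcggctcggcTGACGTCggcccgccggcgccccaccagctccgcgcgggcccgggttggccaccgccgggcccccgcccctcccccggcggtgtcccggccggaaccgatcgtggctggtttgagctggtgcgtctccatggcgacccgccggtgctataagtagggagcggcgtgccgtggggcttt
The window before the other start of ODC1 held the E-box CACGTG, found in 6.34% of windows.

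At 0.5 h the ODC1 controls were 2.28, 2.37, 2.24 and 1.94, the irradiated arrays 3.03, 3.11, 3.65 and 2.49, and the bystander arrays 2.71, 2.93, 3.82 and 2.14. All irradiated arrays lay above all controls, whereas the bystander array of experiment 4 lay below 3 of the controls. The mean log2 ratio was 0.86 ± 0.38 (limma adjusted p = 0.0459, 1.82-fold) in irradiated and 0.69 ± 0.61 (adjusted p = 0.0842, 1.62-fold) in bystander cells. Experiment 3 gave the highest ratios, 1.42 and 1.58, and without it the bystander ratio was 0.40 (adjusted p = 0.12). The bystander call was also lost without any other single experiment, and the irradiated call without experiment 1 (0.90), 2 (0.90) or 4 (0.97).

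At 6 h the ODC1 controls were 1.92, 1.94, 1.19 and 1.65, the irradiated arrays 3.15, 3.03, 2.08 and 4.16, and the bystander arrays 2.71, 2.99, 1.83 and 4.29. All irradiated arrays lay above all controls, and experiment 4 was the highest in both exposed groups. The irradiated ratio was 1.43 ± 0.74 (limma adjusted p = 0.0320, 2.69-fold) and was called with each experiment left out in turn. Without experiment 4 it was 1.06 (adjusted p = 0.0378). In bystander cells the ratio was 1.28 ± 0.93 (adjusted p = 0.142), higher in 4 of 4 experiments and not called, and without experiment 4 it was 0.82 (adjusted p = 0.305). The same-slide irradiated differences at 6 h were 1.21, 1.36 and 2.52, and the ratio with the slide as a fixed block was 1.55 (adjusted p = 0.0565).

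At 1, 2, 4 and 24 h the ODC1 ratios were 0.56, 0.67, 0.76 and 0.64 in irradiated cells and 0.32, 0.47, 0.73 and 0.50 in bystander cells, and none was called (lowest adjusted p = 0.119). The ratios were larger in experiment 4, whose mean ratio over the 6 times was 1.51 in irradiated and 1.45 in bystander cells, against 0.56 to 0.65 and 0.37 to 0.45 in the other experiments. Without it the ratios at 1, 2, 4 and 24 h were 0.33, 0.40, 0.49 and 0.30 in irradiated cells and 0.01, 0.13, 0.47 and 0.12 in bystander cells. The irradiated ratio at 2 h was then called (limma adjusted p = 0.0146), again among 4915 probes, as it also was with normexp background correction (0.66, adjusted p = 0.0353). In bystander cells the ratio was called at 1 h with spike-in scaling (0.77, adjusted p = 0.0832), among 8360 probes, and at 4 h without scaling (1.20, adjusted p = 0.0230), among 3727.

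The next step of synthesis, spermidine synthase, went the other way at 0.5 h. SRM is measured by probe A_23_P74269, shown here with its promoter because SRM was the only member called lower. The promoter window lies at chr1:11060019-11060268 on GRCh38.p14, on the - strand, with the E-box CACGTG and copies of CCAAT in capitals.
SRM probe A_23_P74269: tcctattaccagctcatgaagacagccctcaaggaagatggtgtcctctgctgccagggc
SRM promoter: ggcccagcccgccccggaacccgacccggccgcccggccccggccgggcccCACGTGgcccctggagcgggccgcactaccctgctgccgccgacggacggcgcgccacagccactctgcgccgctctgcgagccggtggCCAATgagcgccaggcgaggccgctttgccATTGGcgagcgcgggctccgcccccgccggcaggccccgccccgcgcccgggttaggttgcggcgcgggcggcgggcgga
SRM controls at 0.5 h were 1.99, 1.97, 1.74 and 1.43, the irradiated arrays 1.36, 1.06, 1.61 and 0.97, and the bystander arrays 1.57, 0.93, 1.65 and 1.00. Each exposed array was below the control of its experiment, and the groups overlapped. The log2 ratio was -0.53 ± 0.33 (limma adjusted p = 0.0768) in irradiated cells and -0.49 ± 0.39 (adjusted p = 0.101) in bystander cells, which was not called and was -0.31 without experiment 2. The irradiated call was lost without experiment 1 (-0.50), 2 (-0.41) or 4 (-0.55), and the same-slide differences were -0.12, -0.62 and -0.41. From 1 to 24 h the SRM ratios lay between -0.25 and 0.22, and without experiment 4 between -0.36 and 0.13.

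**Figure D2:**
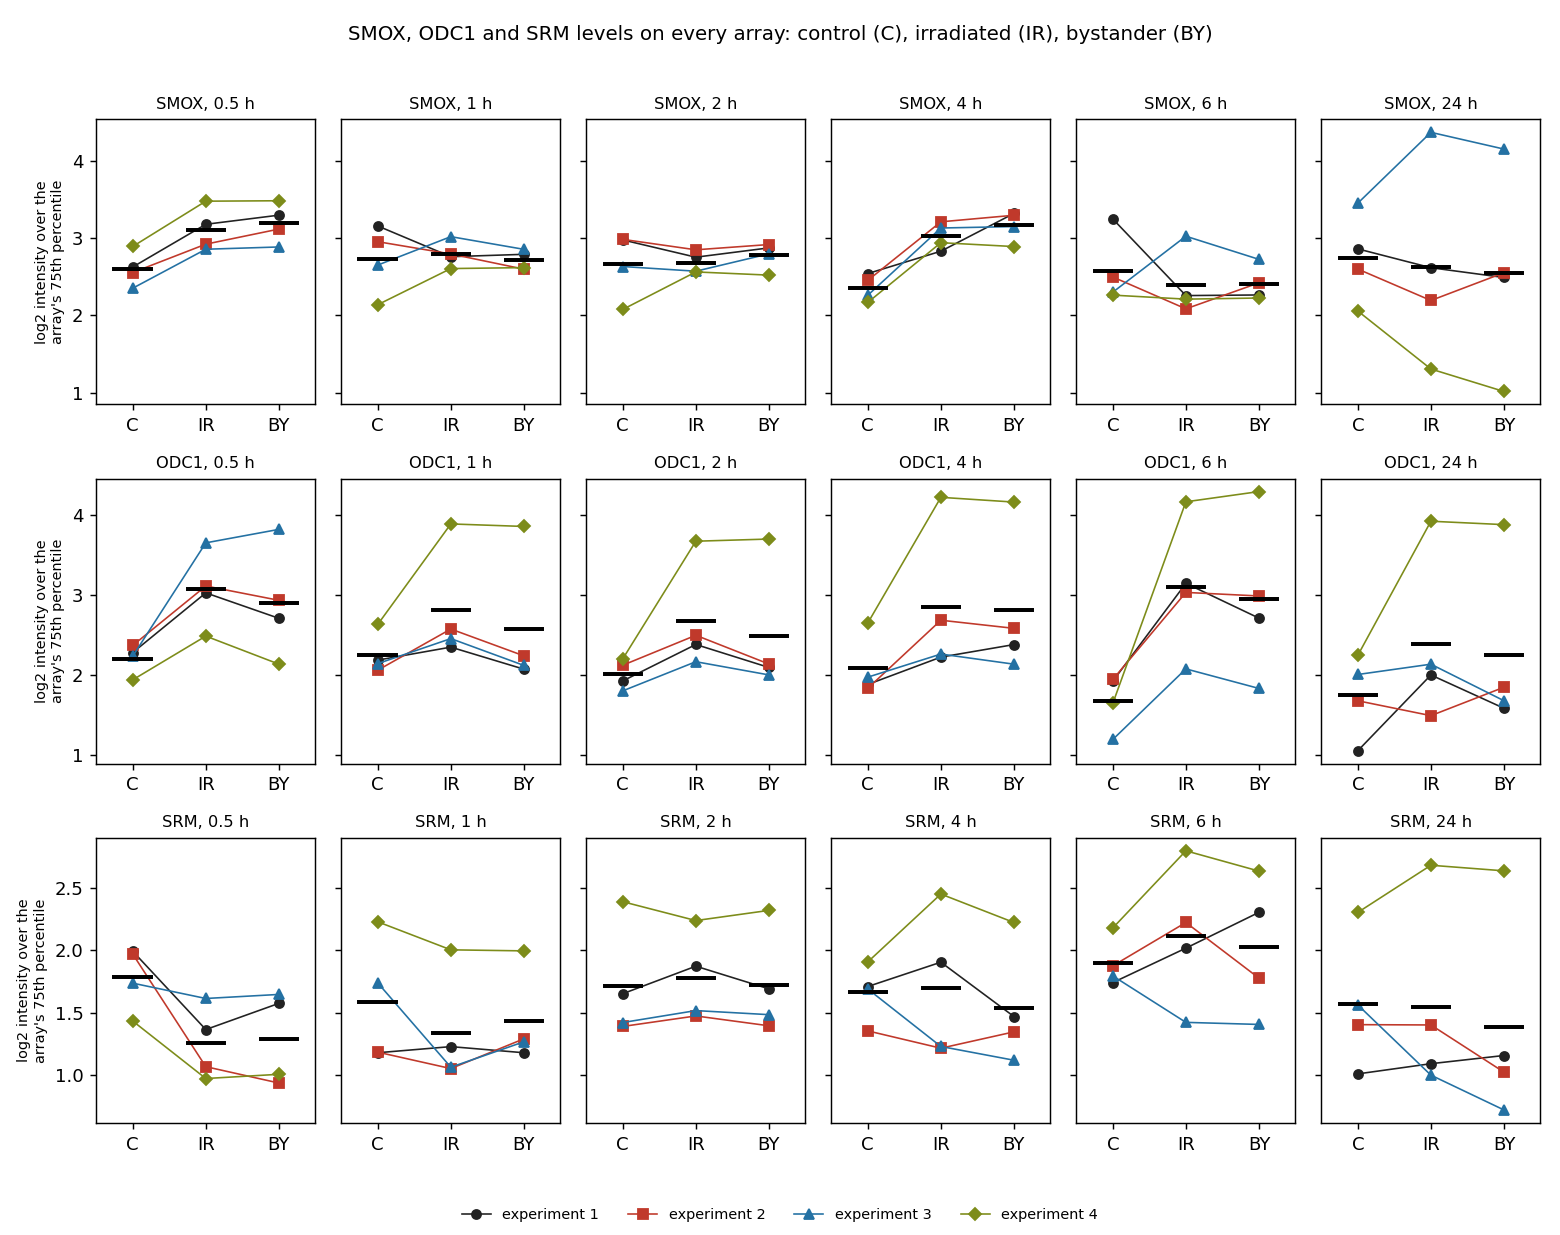
Levels of SMOX, ODC1 and SRM at each time, in log2 units over the 75th percentile of the array, with 1 point for each of the 4 experiments in control (C), irradiated (IR) and bystander (BY) cells, joined by experiment, and black bars for group means. SMOX arrays of exposed cells lie above all controls at 4 h, and the irradiated ODC1 arrays lie above all controls at 0.5 and 6 h.

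AMD1, SMS and OAZ1 had no call in any comparison as fitted here. SMS, the spermine synthase, was highest against control at 6 h, with ratios of 0.60 ± 0.56 and 0.64 ± 0.81 for its probes A_24_P305764 and A_32_P50452 in irradiated cells (limma adjusted p = 0.122 and 0.166) and 0.64 ± 0.60 and 0.69 ± 0.75 in bystander cells (adjusted p = 0.256 and 0.296). Without experiment 3 the ratio of A_32_P50452 was 0.34 in irradiated and 0.43 in bystander cells, and without experiment 1 the irradiated ratio was 0.97 and was called (adjusted p = 0.0937). In 1 fit over all times all 4 of these ratios were called (adjusted p = 0.0168 to 0.0845). That fit called 6572 of 25246 probes in irradiated and 1787 in bystander cells at 6 h, against 2656 and 73. At 4 h the bystander ratios of the SMS probes were 0.45 and 0.56, and 0.30 and 0.37 without experiment 4. Without scaling, where the median of all probes moved by 0.47, they were 0.92 and 1.03 and were called (adjusted p = 0.0712 and 0.0539). AMD1 was lowest against control at 24 h with probe A_23_P214121: its controls were 1.85, 1.79, 2.44 and 2.70, its irradiated arrays 1.85, 1.22, 1.71 and 0.96, and its bystander arrays 1.33, 1.49, 1.37 and 1.29. The ratio was -0.76 ± 0.72 (adjusted p = 0.267) in irradiated and -0.82 ± 0.51 (adjusted p = 0.354) in bystander cells, where the groups did not overlap. Without experiment 4 these were -0.43 and -0.63, and in 1 fit over all times both were called (adjusted p = 0.0150 and 0.0162). At 24 h that fit called 1753 probes in irradiated and 941 in bystander cells, against 44 and 0. The other AMD1 probe, A_24_P371962, gave -0.40 and -0.34 at this time and -0.29 and -0.19 without experiment 4, and the pair of AMD1 probes differed by up to 0.48 in their mean ratio. The lowest adjusted p of AMD1 was on the other side of 0: A_24_P371962 had a ratio of 0.47 ± 0.21 in irradiated cells at 1 h (adjusted p = 0.138), higher in 4 of 4 experiments, and its bystander ratio at that time, 0.30 ± 0.29, was called with spike-in scaling (0.75, adjusted p = 0.0821). Without experiment 4 the irradiated and bystander ratios of this probe at 1 h were 0.37 and 0.17. Of the 24 tests against control for each gene, 4 of AMD1 and 8 of SMS had an unadjusted p below 0.05, against 18.5% of the tests of all probes.

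Where all experiments gave a value, the mean OAZ1 ratios lay between -0.38 and 0.03 over its 3 probes, but the experiments did not go the same way. Without experiment 4 the same ratios lay between -0.26 and 0.17. The ratio of A_23_P409945, averaged over times, was 0.21 and 0.13 in irradiated cells of experiments 1 and 2 and -0.49 and -0.64 in experiments 3 and 4. Without scaling, A_23_P409945 and A_23_P409951 were called lower in irradiated cells at 2 h (-0.66 and -0.53; limma adjusted p = 0.0738 and 0.0436). In that setting 6914 of 25246 probes were called, 0.984% of them higher, and the median of all probes moved by -0.38. The OAZ1 spots were uneven on some arrays and were then treated as missing, 6 times for A_23_P409945, 3 times for A_24_P918808 and 1 time for A_23_P409951. At 6 h A_23_P409945 was left without any within-experiment ratio in irradiated cells, and the limma estimate there, 1.02 (adjusted p = 0.105), rests on 1 irradiated array. It was called higher with the value table that the authors deposited (1.07, adjusted p = 0.0976). The 3 probes are not separate measurements, since A_23_P409951 shares 29 bases with A_23_P409945 and 30 with A_24_P918808, and their mean ratios differed by up to 0.41.

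Of 144 tests of the 12 probes against control, 14 were called, 13 higher and 1 lower, and in all 14 the 4 experiments had the same direction. A test blocked by experiment favours such agreement, so it is not separate evidence. At 0.5 h 4 of 12 probes, from 3 genes, were called higher in irradiated cells, against 5.8% of all probes, and 1 was called lower, against 4.11%. In bystander cells 4 of 12 were called higher, against 4.25%, and 0 lower, against 2.77%. At 4 h 1 probe was called higher in irradiated cells (0.772% of all probes) and 3 in bystander cells (0.491%), with 0 called lower (0.23% and 0.103%). At 6 h 1 probe was called higher in irradiated cells (4.88%) and 0 lower (5.64%). The median log2 ratio over the 12 probes was 0.04 and 0.03 in irradiated and bystander cells at 0.5 h, and 0.31 in irradiated cells at 6 h. Over all probes it was -0.03 in irradiated cells at 0.5 h and 0.02 at 6 h.

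No member was called in the remaining comparisons with control. The share of all probes called there, either direction counted, was 0% in irradiated and 0% in bystander cells at 1 h, 5.78% and 0.214% at 2 h, 0.289% in bystander cells at 6 h, and 0.174% and 0% at 24 h. Without experiment 4 the calls at 2 h went from 1460 to 4915 in irradiated and from 54 to 3112 in bystander cells. Where limma called no probe, the number with an unadjusted p below 0.05 was 6796 in irradiated and 3624 in bystander cells at 1 h and 2813 in bystander cells at 24 h. Without the pairing by experiment as a block, 0 of the 14 member calls were made (limma adjusted p = 0.239 to 0.641). With the slide as a further fixed block 2 were made, and with the slide as a random block all 14. Without scaling 8 were made and with scaling to the spike-in spots 5. The direction of the 14 was the same in all of these.

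**Figure D3:**
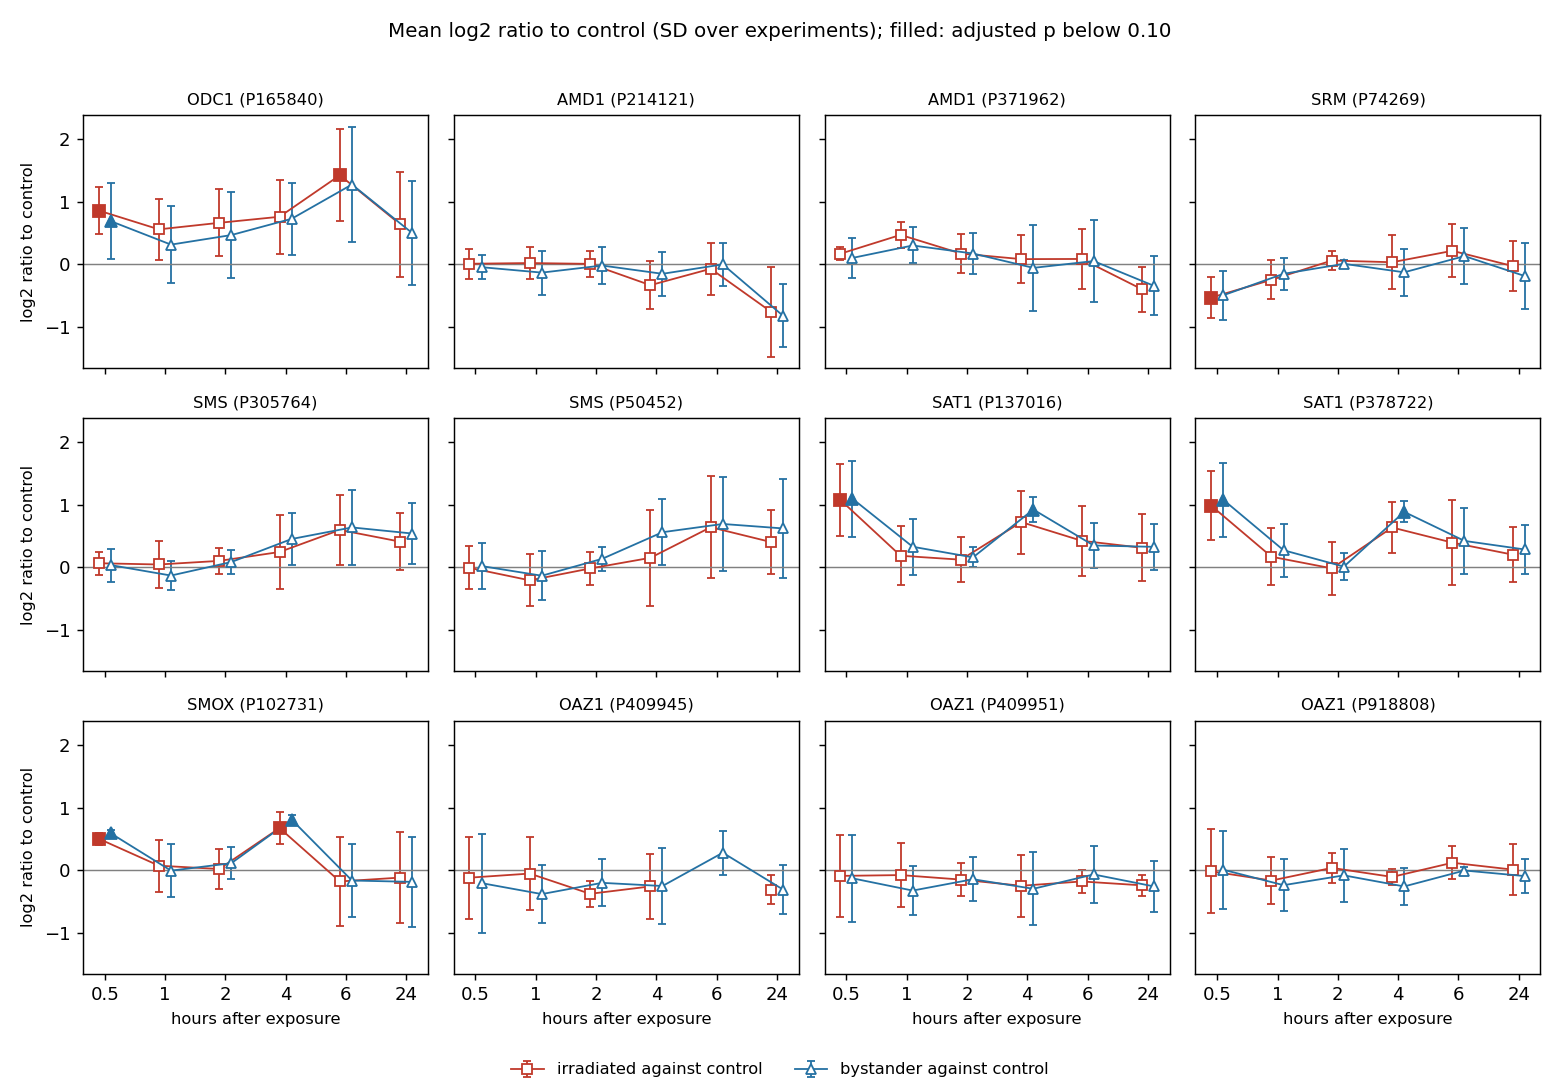
Log2 ratio to control of all 12 probes at each time in irradiated and bystander cells, with points for the mean over experiments and bars for the SD (4 experiments, fewer for OAZ1 where spots were missing, and no point for A_23_P409945 in irradiated cells at 6 h), and filled markers for the 14 called comparisons. SAT1 reaches a mean of 1.08 in irradiated cells at 0.5 h and ODC1 a mean of 1.43 at 6 h.

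Irradiated and bystander cells were then set against each other directly, the question being whether a hit cell differs from its shielded neighbour in these genes. No member probe was called at any time (lowest adjusted p = 0.922), and 71 of 72 intervals of the difference included 0. The exception was OAZ1 probe A_23_P409945 at 6 h, where 1 experiment held both arrays. Over all probes 0% were called at 0.5 h, 0% at 1 h, 0.0436% at 2 h, 0.00792% at 4 h, 0% at 6 h and 0% at 24 h, with 543, 1248, 284, 327, 383 and 101 probes at an unadjusted p below 0.05 in limma. For SAT1 probe A_23_P137016 the irradiated minus bystander difference at 4 h was -0.20, with a 95% interval of -0.59 to 0.19, and at 0.5 h the interval was -0.51 to 0.47. For SMOX it was -0.14 (-0.44 to 0.17) at 4 h, and for ODC1 0.15 (-0.47 to 0.77) at 6 h. Differences of up to about 0.5 on the log2 scale in SAT1 therefore remain within the intervals at 0.5 h.

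**Figure D4:**
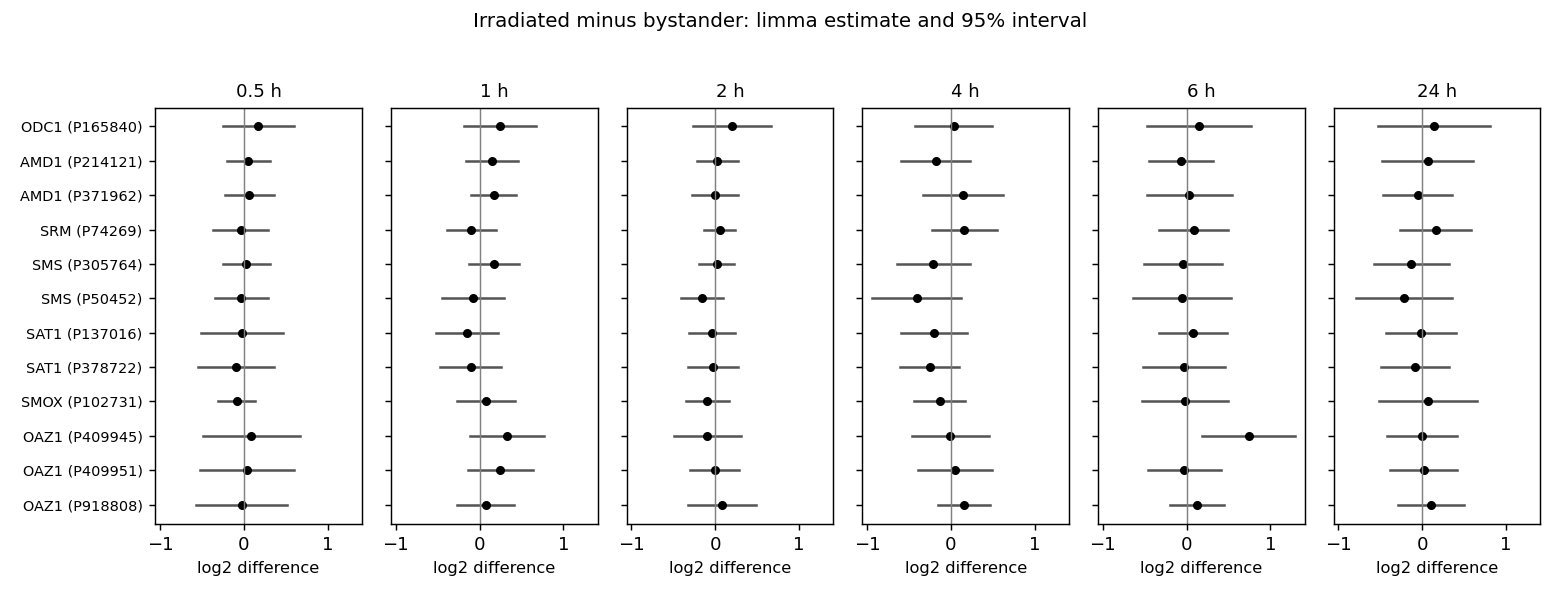
Difference of irradiated minus bystander cells on the log2 scale for each of the 12 probes at each time, as the limma estimate with its 95% interval. All intervals but that of OAZ1 probe A_23_P409945 at 6 h include 0, and that of ODC1 at 6 h runs from -0.47 to 0.77.

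The course of the ratios over time was tested within experiments, since time points lay on different slides. For this a replicate number was taken as the same experiment at all times, which was not tested. No member passed the test over the 6 times, in which limma called 4 of 25245 probes for irradiated and 1 of 25246 for bystander cells (1687 and 574 at an unadjusted p below 0.05). The bystander SMOX ratio had the lowest unadjusted p among the members, 0.0069, with an adjusted p of 1.00. The bystander SAT1 ratio of A_23_P137016 at 2 h minus that at 0.5 h was -0.94, which did not pass either (adjusted p = 1.00).

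SAT1 and SMOX, the pair of catabolic genes, tended to move alike over the 48 within-experiment ratios, with Pearson's r = 0.71. ODC1 was less like SAT1 (r = 0.23), and SRM ran opposite to SAT1 (r = -0.54) and SMOX (r = -0.59). ODC1 was most like SMS (r = 0.59) and SRM (r = 0.49) among the members. These are descriptions, since the irradiated and bystander ratios share the control array of their experiment and time. Over the same ratios the genes most like SAT1 were DNAJA1 (r = 0.85), PHEX (0.83), CDC40 (0.83), ZNF222 (0.82), ERN1 (0.82), CLDND1 (0.81), HLA-DMB (0.80) and COX6B2 (0.80). DNAJA1 encodes a co-chaperone of heat shock proteins, and ERN1 encodes a sensor of unfolded protein in the endoplasmic reticulum. A shared function of the listed genes was not tested. The genes most like ODC1 were LYAR (r = 0.93), RRP15 (0.93), UCK2 (0.92), PAK1IP1 (0.92) and SNRPD1 (0.92).

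Beyond the core enzymes, 31 further genes of polyamine supply, transport and use were listed, of which 27 had a kept probe, 39 probes in all. At 0.5 h 1 of the 39 was called higher and 4 lower in irradiated cells (5.8% and 4.11% of all probes), and 0 higher and 2 lower in bystander cells (4.25% and 2.77%). The lower probes were both of AZIN2, an inhibitor of the antizymes, with ratios of -0.54 ± 0.19 and -0.48 ± 0.28 in irradiated cells (limma adjusted p = 0.0698 and 0.0771) and -0.50 ± 0.31 and -0.49 ± 0.30 in bystander cells, and both of ATP13A2, a lysosomal polyamine exporter, at -0.72 ± 0.13 and -0.64 ± 0.13 in irradiated cells (adjusted p = 0.0571 and 0.0768). In bystander cells the ATP13A2 ratios were -0.46 ± 0.37 and -0.45 ± 0.47 and were not called. With another background correction (normexp) the bystander ratio of AZIN2 probe A_23_P103371 was 0.055 and no longer below 0. ATP13A3, a polyamine transporter of the same family, was the one called higher, at 0.63 ± 0.44 (adjusted p = 0.0982).

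At 6 h 5 of the 39 probes were called higher and 1 lower in irradiated cells, against 4.88% and 5.64% of all probes. ATP13A3 had ratios of 1.27 ± 0.81 (limma adjusted p = 0.0469) and 0.72 ± 0.69 (adjusted p = 0.0970), the latter higher in 3 of 4 experiments. AGMAT, annotated as agmatinase, was higher by 1.04 ± 0.70 (adjusted p = 0.0722), 1 of 2 probes of EIF5A2, a substrate of spermidine-dependent hypusination, by 0.77 ± 0.59 (adjusted p = 0.0824), and 1 of 2 probes of SLC3A2, a shared heavy chain of amino acid transporters, by 0.49 ± 0.25 (adjusted p = 0.0776). OAZ2, the second antizyme, was lower, at -0.76 ± 0.57 (adjusted p = 0.0658). Of the 13 calls of this list, 0 were made without experiment 4 and 0 without the pairing by experiment. None of the 39 was called in the other comparisons, and the median ratio over the 39 was -0.01 in irradiated cells at 0.5 h and 0.04 at 6 h.

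**Figure D5:**
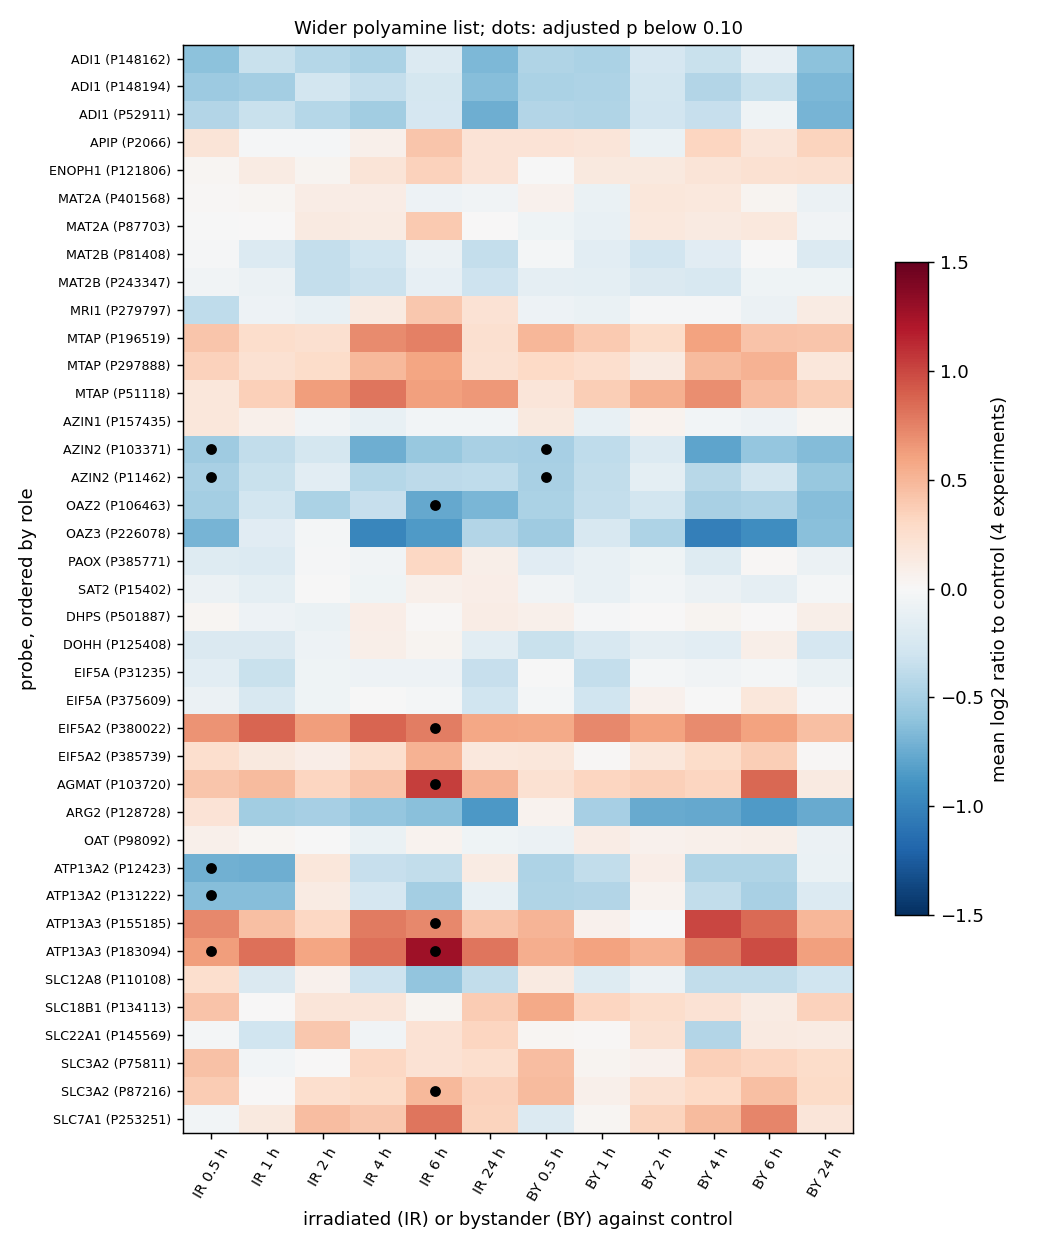
Heat map of the mean log2 ratio to control over 4 experiments for the 39 probes of the wider polyamine list (vertical, ordered by role) in irradiated and bystander cells at each time (horizontal), with dots on called probes. ATP13A3 reaches 1.27 in irradiated cells at 6 h and ATP13A2 -0.72 at 0.5 h.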

How the data were processed

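The deposited files were the scanner output of 72 one-colour (Cy3) arrays from Agilent Feature Extraction 9.1.3.1. Per the file headers, the authors subtracted background and detrended the intensity of each spot, and did not normalize between arrays. The log2 value table that the authors deposited, which holds the same intensities without scaling, was scaled to the same percentile here and used as an alternative.

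For each array, log2 intensity minus the log2 of its 75th percentile over the 43376 spots other than controls was taken, uneven spots were treated as missing, and repeated spots were averaged by probe. A probe was left out where over 10% of the arrays had it dim or uneven, which kept 25246 of 41000. Groups came from the sample labels. Each time was fitted by itself with limma 3.58.1 in R 4.3.3 (treatment, experiment as a block, intensity trend, Benjamini-Hochberg), and the course over time on the 24 within-experiment ratios of a treatment by a moderated F-test. The number of arrays limits the precision.

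The replicate number of the labels was taken as the experiment. The study's methods describe 4 independent experiments and pair samples by replicate, but do not tie the label numbers to experiments. Over all probes, deviations from group means correlated above 0.1 in 12 of 12 same-number pairs at 0.5, 1, 2 and 24 h and in 10 of 12 at 4 and 6 h, with medians of 0.36 to 0.63. These pairs lie within a time, so whether a number marks the same experiment at all times was not tested. The tests were checked on simulated data in which noise was independent between probes. The simulation held no slide effect, outlying experiment or array-wide shift, so it does not speak to these. The alternatives were 16 other settings of scaling, background, filter, block, slide and left-out experiment. All member probes are named, and genes of the wider list where a probe was called. Members, lists and tests were chosen with earlier results of these data known. Gene names are those of the array's design, which for the 0.5 h arrays was a newer annotation. Promoter bases came from RefSeq, which matched 6 of the 7 members. The result for 1 marker gene of another cell type is not reported here.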

Additional observations from a re-analysis of the deposited data

Results flagged for a closer look

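In 208 sets of 4 arrays, each a probe of the 7 genes in a group, 12 held an array whose gap to its nearest neighbour was too large a part of the set's range (Dixon's test at the 95% level), where chance gives about 1 in 20 sets. Of these 12, 11 were arrays of experiment 4. For ODC1 its array was the highest among bystander cells at 1 h (3.86), 2 h (3.70) and 24 h (3.88), among irradiated cells at 1 h (3.89) and among controls at 4 h (2.65). For SAT1 its control was the highest at 0.5 h (4.23, A_23_P137016) and the lowest at 1 h (2.80 and, with A_23_P378722, 2.95) and 4 h (2.54). It was also the lowest for AMD1 probe A_23_P214121 in irradiated cells at 4 h (0.97) and the highest for SRM in bystander cells at 1 h (2.00). The array of experiment 3 was the highest for SMS probe A_24_P305764 among controls at 24 h (3.98). These are levels, in log2 units over the 75th percentile of the array, and the 4 SAT1 values are all controls, against which both exposed groups are measured.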

How the results depend on the processing

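Of 7 irradiated and 7 bystander comparisons called against control, none changed direction under any of the 16 alternatives. The irradiated count was 3 with spike-in scaling, 2 with the slide as a fixed block and 11 with 1 fit over all times. It was 0 with no replicate block, and 1 to 6 with 1 experiment left out. The bystander count was 0 with no replicate block, 0 with the slide as a fixed block, 11 with 1 fit over all times and 0 to 4 with 1 experiment left out. The lost calls under the fixed slide block had adjusted p of at least 0.105. The irradiated ODC1 call at 6 h was kept in 15 of 16 alternatives and the bystander ODC1 call at 0.5 h in 3. Calls made only under alternatives included irradiated SAT1 at 4 h (adjusted p = 0.0378), SMS at 6 h and AMD1 at 24 h with 1 fit over all times, bystander SRM at 0.5 h in 5 alternatives, and bystander ODC1 at 6 h with spike-in scaling (adjusted p = 0.0131) and with 1 fit over all times (adjusted p = 0.0100). The cause was not tested. Of the 13 calls of the wider list, the bystander ratio of AZIN2 probe A_23_P103371 at 0.5 h changed direction, to 0.055 with normexp background correction, and the other 12 kept theirs in all alternatives in which they had a value (AGMAT had none with the strict filter). No member was called between irradiated and bystander cells in any of the 16 alternatives, or over time in the 13 in which that test was run.

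Array-wide calls moved further. At 0.5 h 2502 probes were called in irradiated cells and 1772, 60.5% of them higher, in bystander cells. Without scaling these were 206 and 253 (36% higher), with spike-in scaling 73 and 109, without experiment 1 488 and 3, without experiment 2 0 and 0, and without experiment 4 350 and 633. At 2 h the irradiated and bystander counts, 1460 and 54, were 4915 and 3112 without experiment 4. Without scaling the median over all probes moved by up to 0.47 (bystander cells at 4 h), where 3727 probes were called, 99.4% of them higher, against 150 and 82.7%. Irradiated cells had 6914 calls at 2 h, 0.984% of them higher, against 1460 and 53.5%, and 4445 at 6 h, 6.39% higher, against 2656 and 46.4%. With spike-in scaling bystander cells had 8360 calls at 1 h, against 0. With 1 fit over all times irradiated cells had 1037, 6572 and 1753 calls at 4, 6 and 24 h, against 253, 2656 and 44. In that fit bystander cells had 703, 1787 and 941, against 150, 73 and 0, while the irradiated calls at 2 h fell to 60, against 1460. Of 202 member values without a call, 71 changed sign without scaling, 48 with spike-in scaling, 32 with the slide as a fixed block and 25 to 36 with 1 experiment left out.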
